A study of Mus musculus with 12 samples.

Results

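Genes were examined that differ between WT and En2-/- mice by an almost complete presence or absence of signal, or that are close relatives of such a gene. They are Fn3krp and its relative Fn3k, Tescl and its relative Tesc, Gm5148, 9430027B09Rik and Prl2c5, which are 7 of 21153 gene names on the arrays and are measured by 10 of 34896 named probes. The 5 genes other than Fn3k and Tesc were chosen by their measured difference between genotypes in these same arrays, so every value that compares En2-/- with WT for the 7 genes is a description and carries no test. The name "on-off" describes only some of them. By the scanner software's detection flag, Gm5148 and 9430027B09Rik were on in 3 of 3 WT arrays and off in 3 of 3 En2-/- arrays in both tissues. Prl2c5 came close to this in the cerebellum, Tescl came close to the opposite (off in WT, on in En2-/-) in the hippocampus, and Fn3krp was detected on all 12 arrays at a level close to background in WT and far above it in En2-/-.

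The arrays hold RNA of whole cerebellum and entire hippocampus from adult mice, 3 to 5 months old. There were 3 arrays per tissue and genotype and 12 in all. The study used mice of both sexes, and the sex behind each array is not given here. En2 encodes Engrailed-2, a homeobox transcription factor that patterns the midbrain and hindbrain. En2-/- mice carry a deletion of the homeobox of En2 in every cell, and their WT controls are littermates from matings of heterozygous mice. The line began on a mixed 129Sv x C57BL/6 and outbred background and had been crossed into C57BL/6 at least 5 times. The background therefore need not be uniform among the mice or the same in both genotypes. The RNA came from 3 mice per genotype, and whether arrays with the same replicate number in the 2 tissues belong to the same mouse is not stated. In such tissue RNA, fewer cells of a type and less RNA per cell cannot be told apart.

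Fructosamine-3-kinase, the product of Fn3k, phosphorylates sugars that have attached to the lysines of proteins, which makes the adduct fall off, and Fn3krp encodes its relative, which acts on other ketosamines. Tesc encodes tescalcin, a calcium-binding protein of the calcineurin B-like group, and Tescl is named for its likeness to it. Prl2c5 belongs to the proliferins, a cluster of near-identical prolactin-like hormone genes of the mouse best known from the placenta. Gm5148 and 9430027B09Rik are known by a gene model and a cDNA clone, and no function is given for them here.

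What each array measures is the binding of labelled RNA to a 60-base probe, so the probes decide which transcript is read. The first 30 bases of the probes that carry the differences follow, 5′ to 3′, with no letter marked, to identify what was measured. All positions are in mm9 as the array files give them, and exons and introns of that build were not analysed here.
Fn3krp, probe A_51_P418147, chr11:121292014-121292073, + strand: gaataatgaccaattctaaaatcaataacg
Fn3krp, probe A_52_P835149, chr11:121284888-121284947, + strand: actgaagcttaattttcccataggtctatt
Fn3k, probe A_52_P268764, chr11:121304124-121304183, + strand: atgtcaaatctcttgatgtttacacataac
Fn3k, probe A_51_P398525, chr11:121311728-121311787, + strand: cccgtccctaggggtgatgaggaagctgct
Tescl, probe A_51_P128075, chr7:25118115-25118174, - strand: gcagactcttgcagcagctacagggtacat
Gm5148, probe A_52_P214408, chr3:37613395-37613454, - strand: actatcttcctaattatgtttcattcagct
9430027B09Rik, probe A_51_P386415, chr5:67772463-67772522, - strand: agtttgtgagactggcttgtaaacttgtga

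Tesc has a single probe, A_52_P69955, at chr5:118511615-118511674. The 2 probes of Prl2c5 are A_52_P511450 at chr13:13282901-13282960 and A_52_P619248, whose bases align to the ends of chr13:13282998-13283933 and so span an intron. Proliferin genes are so alike that a probe may read several of them. The second Prl2c5 probe is shown whole beside the most similar probe of its neighbour Prl2c3, with capitals for bases that differ or have no partner within the aligned stretch.
Prl2c5, probe A_52_P619248: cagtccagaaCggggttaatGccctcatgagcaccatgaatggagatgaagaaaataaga
Prl2c3, probe A_52_P84814: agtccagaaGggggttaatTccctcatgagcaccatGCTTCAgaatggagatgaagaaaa

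Over the 60 aligned columns 52 were identical, 2 differed and 6 were gapped, all 6 in a run that the Prl2c3 probe holds and the Prl2c5 probe lacks. The transcripts that the array annotation lists for these probes belong to several genes, namely Prl2c5 and Prl2c1 for the first and Prl2c3 and Prl2c2 for the second. The other Prl2c5 probe lists Prl2c5, Prl2c2 and Prl2c3. Signals given below for Prl2c5 are therefore those of the proliferin probes, and which gene of the cluster they come from is uncertain.

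Signal is given in 2 forms. The mean signal of a spot is the scanner's brightness before any correction, and the local background around these spots was between 16 and 30 units. The normalized level is log2 of the software's background-corrected signal after quantile normalization over the 12 arrays, and the lowest level flagged as well above background ran from 3.18 to 4.93 on that scale over the 12 arrays. A change is En2-/- minus WT on the log2 scale with its standard error from limma. Over all arrays 62.3% to 73.0% of spots were well above background, and 3 arrays a group is what limits precision throughout. Probes for a gene have different affinities, so levels of different probes are not compared.

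In all, 145 of 25043 probes tested in the cerebellum had a limma adjusted p under 0.05, which is 0.579% of them, with 61 higher and 84 lower in En2-/-. In the hippocampus 510 of 23767 probes did, or 2.15%, with 204 higher and 306 lower. Of the 10 member probes, 6 of the 9 tested passed in the cerebellum and 5 of the 7 tested in the hippocampus. These counts follow largely from the choice of the genes. The Fn3k probe A_52_P268764, which passed in both tissues, entered as a probe of a relative. The genes were chosen with earlier results of these data known, so its pass is no test either. Of the probes tested, 4 in the cerebellum and 3 in the hippocampus passed the filter on dim signals only through the genotype in which they are high. By detection alone, 108 probes in the cerebellum (0.309% of all named probes) and 186 in the hippocampus (0.533%) were well above background on 3 of 3 arrays of one genotype and 0 of 3 of the other. Only 11 probes (0.0315%) did so in the same direction in both tissues, and 2 of them are the probes of Gm5148 and 9430027B09Rik.

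**Figure D1:**
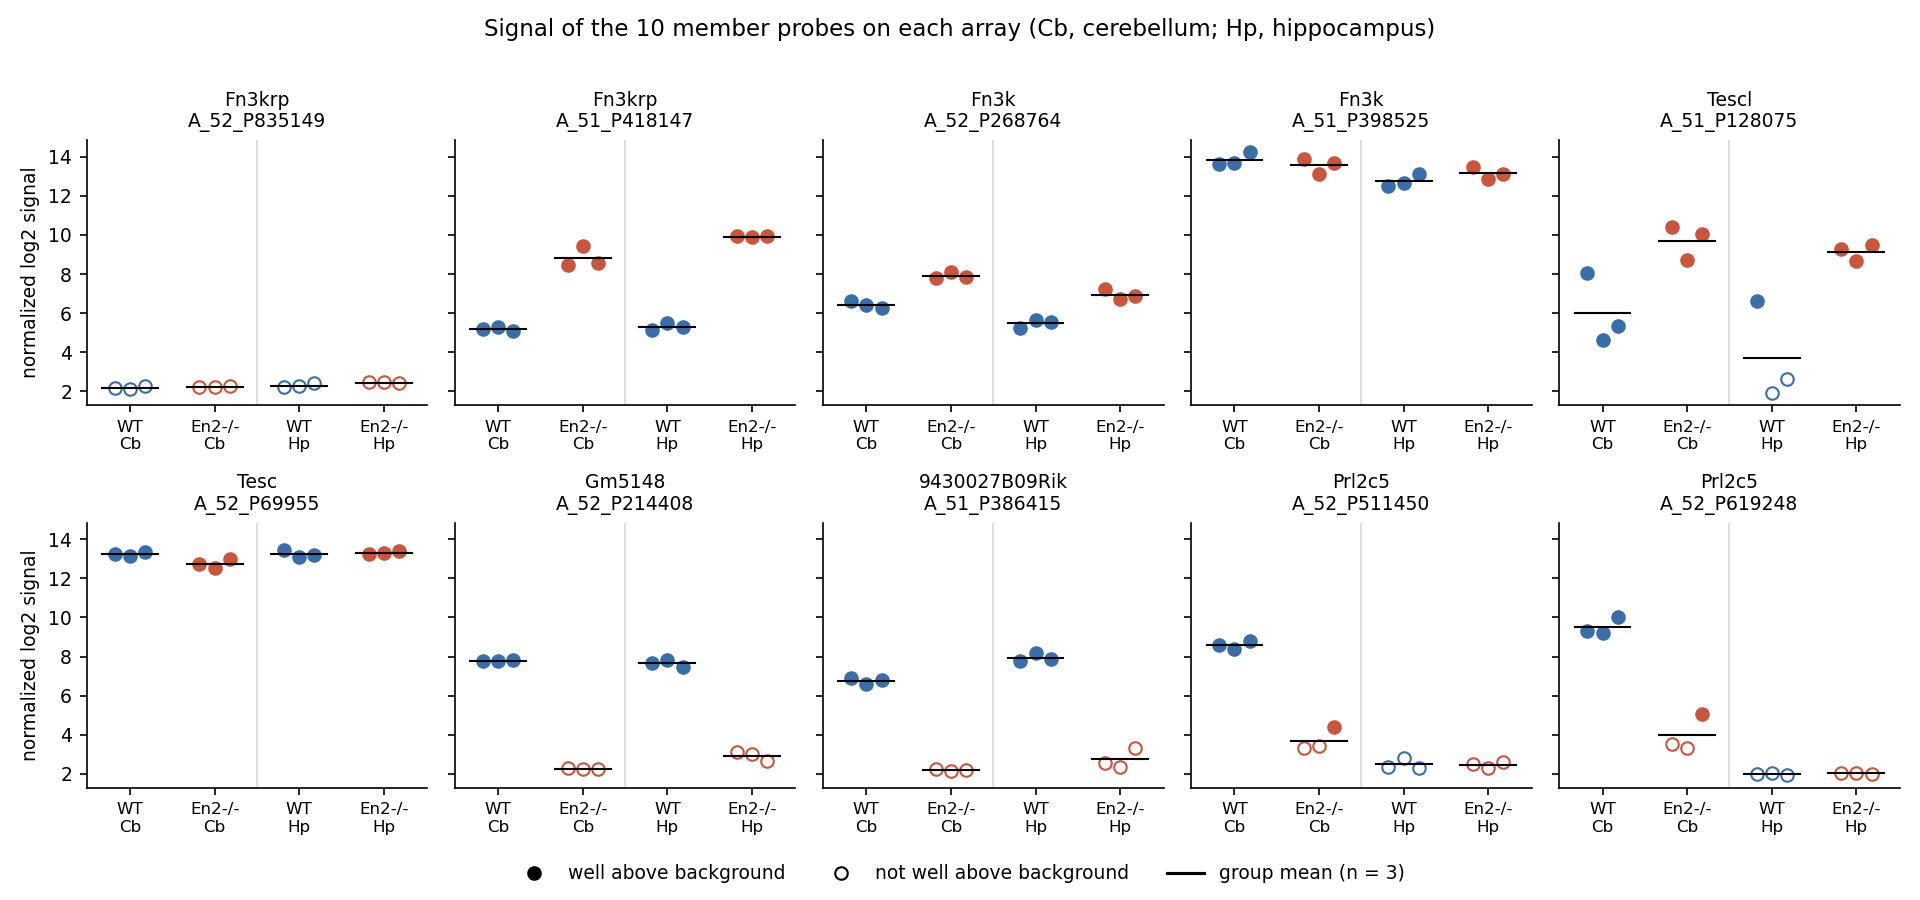
Normalized log2 signal of the 10 member probes on each of the 12 arrays (y axis), by genotype and tissue (x axis), with blue for WT and red for En2-/-. Filled points are arrays where the probe was well above background, open points are those where it was not, and bars are means of 3 arrays. Gm5148 and 9430027B09Rik are filled in WT and open in En2-/- in both tissues, while Fn3krp probe A_51_P418147 is filled in all 4 groups.

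Gm5148 was present in WT and not detected in En2-/- in both tissues. In the WT cerebellum its mean signal was 262, 335 and 164 on the 3 arrays, and in the En2-/- cerebellum it was 42.4, 34.6 and 35.2. The WT spots were 9.12 to 14.2 times as bright as their local background and the En2-/- spots 1.5 to 1.93 times, with no overlap. In the hippocampus WT arrays gave 251, 189 and 147 and En2-/- arrays 46.7, 38.2 and 40.2, again with every WT array above every En2-/- array. Normalized levels in WT against En2-/- were 7.77 ± 0.03 against 2.26 ± 0.02 for the cerebellum and 7.65 ± 0.19 against 2.91 ± 0.24 for the hippocampus (SD, n = 3 each). The En2-/- spots were at the surrogate value that the software assigns below its detection limit on all 6 arrays, so their small SD is not a measure of spread in the RNA. Since En2-/- has only a bound, Gm5148 was at least 16.0-fold lower in En2-/- cerebellum and at least 7.70-fold lower in En2-/- hippocampus. These bounds set the mean of the brighter group, here WT, against the arrays of the dimmer group. Each of those arrays enters at its lowest signal flagged well above background, or at the probe's own signal where that is higher. That lowest signal belongs to the array and not to the probe, and a probe can go unflagged above it. The bounds are therefore approximate. Here and below, bounds hold for the software's background-corrected signal only.

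9430027B09Rik gave the same pattern of flags. Mean signals in the cerebellum were 169, 184 and 108 in WT against 33.4, 31.9 and 35.7 in En2-/-, and in the hippocampus 283, 235 and 215 in WT against 41.0, 40.2 and 46.6 in En2-/-. The 2 genotypes did not overlap in either tissue, and the En2-/- spots were 1.34 to 1.62 times background in the cerebellum and 2.01 to 2.39 times in the hippocampus. Normalized levels were 6.76 ± 0.16 and 2.19 ± 0.04 in WT and En2-/- cerebellum, and 7.94 ± 0.20 and 2.73 ± 0.50 in hippocampus (SD, n = 3 each). The gene was at least 7.93-fold lower in En2-/- cerebellum and at least 9.40-fold lower in En2-/- hippocampus.

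The other 9 probes that were on in one genotype and off in the other in both tissues give the company of these 2 genes. Those off in En2-/- included Ccl21a, Tmem117, D430006K04, Pilra and Tcam1, and those on only in En2-/- were Klk1b3 and Lta. Ccl21a, which encodes a chemokine that guides lymphocytes and dendritic cells, was at least 71.0-fold lower in the En2-/- cerebellum and at least 46.4-fold lower in the hippocampus. Klk1b3, a kallikrein protease gene, was at least 53.6-fold and at least 7.83-fold higher. For Tcam1 the bounds were 2.26-fold and 1.27-fold, so the same flags also cover dim probes for which no large difference can be stated.

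Fn3krp had a weak signal in WT and a strong one in En2-/-. In the cerebellum its probe A_51_P418147 read 82.6, 104 and 56.7 in WT and 401, 785 and 390.5 in En2-/-. In the hippocampus the values were 74.6, 68.4 and 64.7 in WT and 803, 713 and 874 in En2-/-. The lowest En2-/- array lay well above the highest WT array in both tissues. WT spots were 2.36 to 4.93 times their local background, close to the limit of detection, and were flagged well above background on all 6 WT arrays. Cerebellar normalized levels were 5.17 ± 0.10 in WT and 8.81 ± 0.53 in En2-/-, a change of 3.64 (SE 0.28) or 12.5-fold. Hippocampal levels were 5.30 ± 0.20 and 9.91 ± 0.02 (SD, n = 3), a change of 4.61 (SE 0.17) or 24.5-fold. Within the 3 slides, each of which held 1 array of every group, the cerebellar difference was 3.28, 4.15 and 3.48 and the hippocampal difference 4.81, 4.38 and 4.65.

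The other Fn3krp probe, A_52_P835149, starts 7126 bases upstream and did not report this transcript. Its mean signal was between 29.7 and 39.5 on all 12 arrays, not well above background on any, so nothing can be said from it about a difference between genotypes.

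Fn3k lies next to Fn3krp, and its 2 probes gave different answers. The Fn3k probe A_52_P268764, which starts 12110 bases downstream of the Fn3krp probe, read 185, 196 and 96.8 in WT and 342, 404 and 296 in En2-/- cerebellum. In the hippocampus it read 93.4, 82.8 and 76.0 in WT and 194, 130.0 and 156 in En2-/-. The genotypes did not overlap in either tissue, and the changes were 1.48 (SE 0.20) and 1.46 (SE 0.20), or 2.79-fold and 2.75-fold. The annotation assigns this probe to transcript variant 2 of Fn3k. The probe A_51_P398525, a further 7604 bases downstream and assigned to transcript variant 1, was bright on every array. It read 15376, 20609 and 16354 in WT and 17781, 8956 and 11815 in En2-/- cerebellum, and from 4889.7 to 7575 in WT and from 6798 to 11393 in En2-/- hippocampus. Its genotypes overlapped in both tissues, with changes of -0.29 (SE 0.28) and 0.40 (SE 0.24). Within the slides of the hippocampus this probe differed by 0.97, 0.21 and 0.01 and within those of the cerebellum by 0.26, -0.57 and -0.56, and the difference between the 2 probes was not tested.

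**Figure D2:**
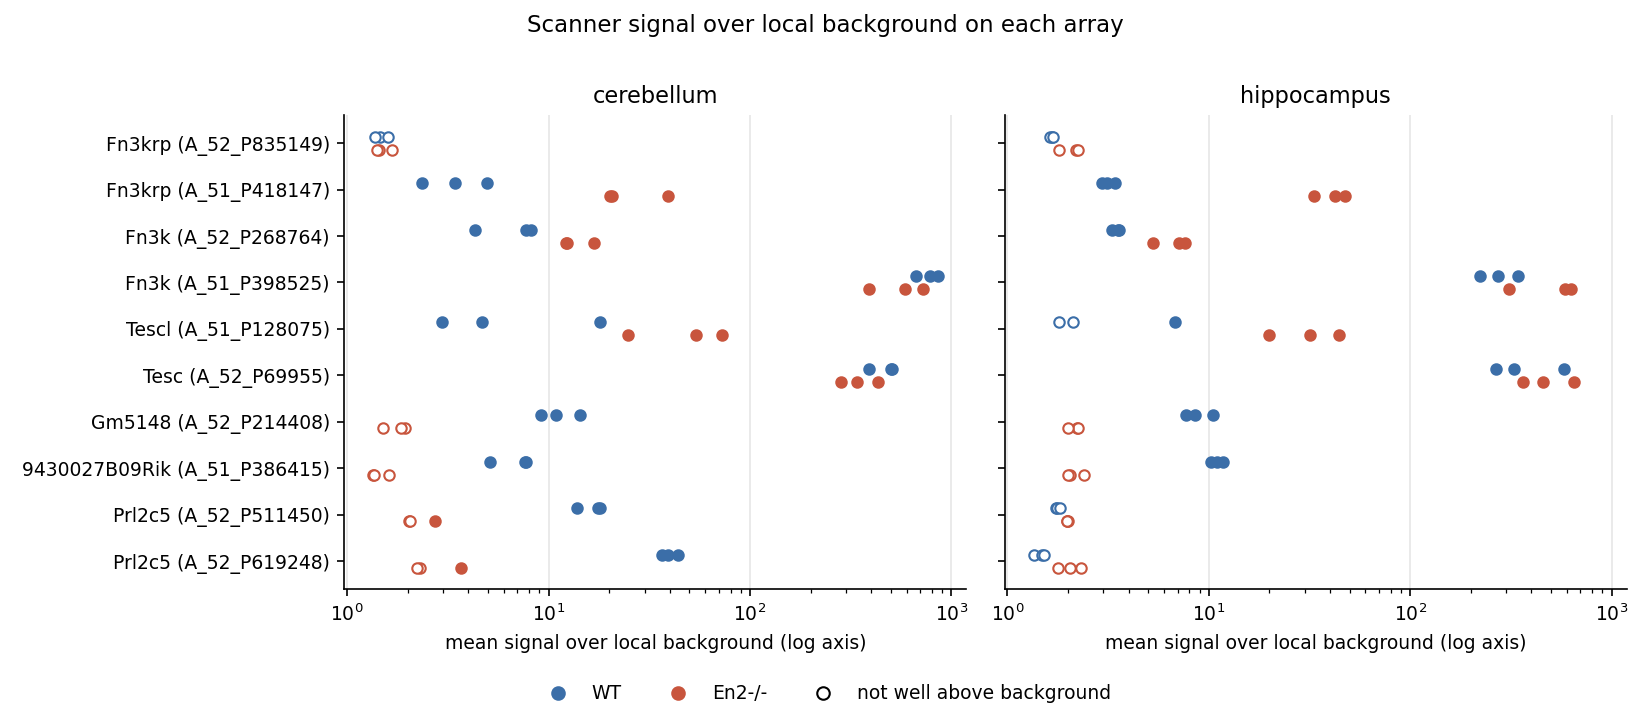
Mean signal over local background of each member probe (x axis, log scale) on each array, in the cerebellum (left) and hippocampus (right), with blue for WT, red for En2-/- and open points for arrays where the probe was not well above background. The WT points of Fn3krp probe A_51_P418147 lie at 2.36 to 4.93, all filled, and its En2-/- points lie to their right in both tissues.

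Tescl also had its higher signal in En2-/-, but 1 WT array stood apart in each tissue. In the cerebellum the WT arrays read 434, 98.0 and 71.1 and the En2-/- arrays 1808, 594 and 1179.8. In the hippocampus WT arrays read 176, 41.5 and 44.7 and En2-/- arrays 635, 378 and 817. WT replicate 1 was the high one in both tissues, and in the hippocampus it was the only WT array on which Tescl was well above background. Even so, no WT array reached the lowest En2-/- array. The cerebellar change was 3.70 (SE 0.85), or 13.0-fold, with normalized levels of 6.00 ± 1.81 in WT against 9.70 ± 0.89 in En2-/- (SD, n = 3). In the hippocampus WT was at 3.72 ± 2.55 and En2-/- at 9.14 ± 0.42, and Tescl was at least 15.0-fold higher in En2-/-, with 1 of 3 WT arrays measured. The size rests on single WT arrays. In the cerebellum the change was 4.73 without WT replicate 1 and 3.01 without WT replicate 2. In the hippocampus the bound was 24.3-fold without WT replicate 1, 12.9-fold without replicate 2 and 10.8-fold without replicate 3. Within the 3 cerebellum slides the differences were 2.33, 4.09 and 4.69, and within slide 1 of the hippocampus, the only slide there with a measured WT signal, 2.64.

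Tesc, the relative of Tescl, was bright everywhere. Its signal was 12977, 14621 and 9143 in WT and 9176, 6818 and 8804 in En2-/- cerebellum, and 7885 to 13389 in WT and 9077 to 13325 in En2-/- hippocampus. On the normalized scale En2-/- was lower in the cerebellum with no overlap (change -0.48, SE 0.21) and overlapped WT in the hippocampus (0.07, SE 0.17). Its probe lies 90.0 Mb from that of En2 on chromosome 5.

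Prl2c5 signal was present in the WT cerebellum and in neither genotype of the hippocampus. The probe A_52_P619248 read 879, 1048 and 862 in WT and 57.2, 49.0 and 77.4 in En2-/- cerebellum, and A_52_P511450 read 432, 469.7 and 304 against 50.8, 45.1 and 56.2. The genotypes did not overlap on either probe. En2-/- replicate 3 was the only En2-/- array flagged well above background, on both probes. Prl2c5 was therefore not fully off in the En2-/- cerebellum, and it was at least 39.9-fold lower by the first probe and at least 24.9-fold lower by the second, with 1 of 3 En2-/- arrays measured. Normalized levels were 9.50 ± 0.43 and 3.98 ± 0.95, and 8.60 ± 0.21 and 3.70 ± 0.61, in WT and En2-/- (SD, n = 3). In the hippocampus all 12 spots of the 2 probes read between 34.1 and 46.7 and none was well above background, so a difference between genotypes was not detectable there.

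The Prl2c3 probes, in the same cluster and about 0.4 Mb away, moved with those of Prl2c5 and may read the same RNA, so they are no independent measure. Probe A_52_P84814 read 1019.9, 1009 and 742 in WT and 60.1, 51.3 and 75.5 in En2-/- cerebellum. It was 37.7-fold lower with 2 of 3 En2-/- arrays flagged, a plain ratio of means and not a bound. The unflagged En2-/- array lay above its own lowest flagged signal and entered at the probe's level. A_51_P312779 read 675, 569 and 359 against 54.5, 52.7 and 103, at least 18.3-fold lower with 1 of 3 measured. In both cases En2-/- replicate 3 was again the highest En2-/- array. The dim probe A_51_P312780 was well above background on 2 WT arrays and no En2-/- array of the cerebellum. None of the 3 was well above background on any hippocampus array.

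Unlike the genotype contrast, the difference between tissues averaged over the genotypes was not used to choose the genes and was tested with limma over all probes, of which 38.6% passed (adjusted p under 0.05; 9824 of 25482). Both Fn3k probes were higher in the cerebellum, by 0.95 (SE 0.14, adjusted p = 0.00017) for variant 2 and 0.75 (SE 0.19, adjusted p = 0.0090) for variant 1. Fn3krp had a difference of -0.61 (SE 0.17, adjusted p = 0.013), a call that was lost when arrays were scaled to their 75th percentile (-0.47, adjusted p = 0.053). Its 2 WT groups differed by -0.13 and its 2 En2-/- groups by -1.10. Tesc did not pass (-0.27, SE 0.13, adjusted p = 0.12), and neither did Tescl (1.43, SE 0.78, adjusted p = 0.18), which was not well above background on 2 of the WT hippocampus arrays.

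For the other 3 genes the average holds signals below detection, so it is not used and levels are given for the measured groups alone, with no test. In WT, Prl2c5 was at least 33.7-fold higher in the cerebellum than in the hippocampus by probe A_52_P619248 and at least 17.96-fold higher by A_52_P511450. The WT levels of 9430027B09Rik differed by -1.18 and those of Gm5148 by 0.11 (cerebellum minus hippocampus). Every array of a tissue carried the same image extraction date and the tissues carried different dates, so tissue and extraction date cannot be told apart.

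The genotype change in the cerebellum minus that in the hippocampus, given with no test, was -0.98 (SE 0.34) for Fn3krp. For the Fn3k variant 2 probe it was 0.02 (SE 0.28) and for variant 1 -0.69 (SE 0.38).

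How far the changes reach depends on how background is treated. In the authors' own log2 values, Fn3krp was higher in En2-/- by 2.30 and 3.17 in cerebellum and hippocampus, against 3.64 and 4.61 from the scanner's processed signal. Gm5148 changed by -1.91 and -1.72 in the authors' values, 9430027B09Rik by -1.42 and -2.01, and Tescl by 2.60 and 2.78. Prl2c5 changed by -3.29 and -2.30 in the cerebellum and has no authors' value in the hippocampus. Where a bound was given above for these genes, the authors' values gave a smaller fold. For Gm5148 they gave 3.75-fold lower in En2-/- cerebellum and 3.29-fold lower in En2-/- hippocampus. For the Fn3k variant 2 probe the authors' values gave 1.05 and 0.77. Bright probes barely moved, as Tesc gave -0.45 and 0.03 and the Fn3k variant 1 probe -0.39 and 0.49. Correcting the scanner's mean signal by normexp with an offset of 50, which adds a constant to every signal before the logarithm, gave nearly the authors' values, for example -1.89 and -1.76 for Gm5148 and 2.32 and 3.16 for Fn3krp.

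**Figure D3:**
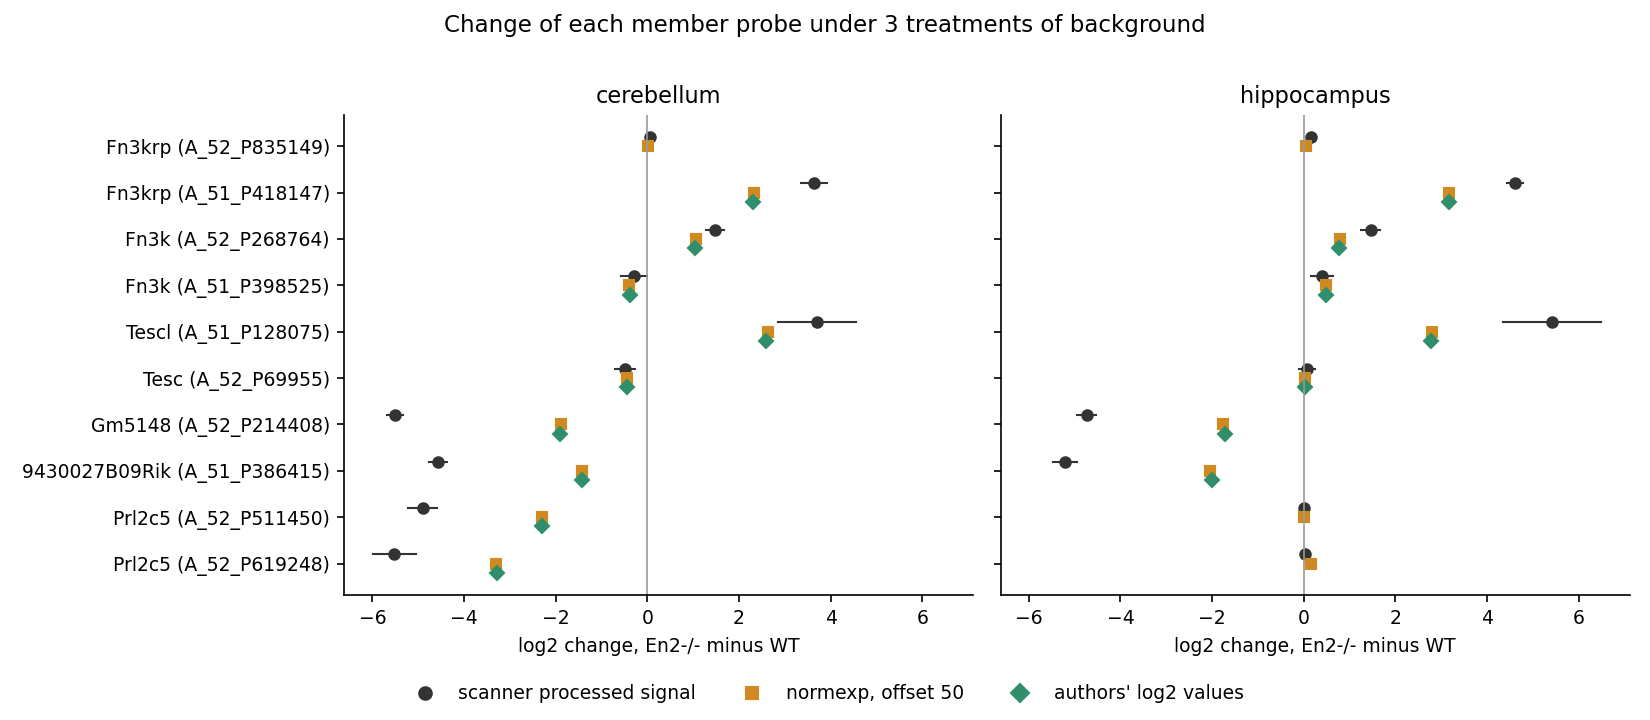
Log2 change of each member probe, En2-/- minus WT (x axis), from the scanner's processed signal (black circles, bars are the standard error), after normexp with an offset of 50 (orange squares) and in the authors' log2 values (green diamonds), for each tissue. Gm5148 in the cerebellum goes from -5.51 to -1.89 and -1.91 with its sign kept, and Tesc stays within 0.05 of its value.

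Gene families of the members were described from lists chosen by name. Of 8 glycation-handling probes other than those of Fn3k and Fn3krp, 7 were tested in each tissue, and none passed in either direction, beside 0.579% and 2.15% of all probes, so nothing is read from this count. Their median change in cerebellum and hippocampus was -0.10 and 0.13, beside -0.003 and 0.01 over all probes. Glo1, which encodes glyoxalase 1 and clears methylglyoxal, had 2 probes, neither of which passed, with cerebellar changes of 0.53 (SE 0.20) and -0.77 (SE 0.23) and hippocampal ones of 0.56 (SE 0.16) and -0.52 (SE 0.19).

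Among calcineurin B-like proteins, calcineurin subunits and Na+/H+ exchangers, 28 probes of 13 genes other than Tesc and Tescl were tested in the cerebellum and 27 in the hippocampus. None passed in either tissue, beside 0.579% and 2.15% of all probes, from which nothing is read for so few, and their medians were -0.04 and -0.02. Chp1, the ubiquitous relative of tescalcin, had 4 probes, whose changes ran from -0.14 to 0.11 (cerebellum) and from -0.49 to 0.25 (hippocampus). Chp2 was well above background on 2 of the 6 cerebellum arrays, both WT, and on no hippocampus array.

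Of 36 probes for the prolactin family and its receptors other than Prl2c5, 18 were not well above background on any cerebellum array and 23 on any hippocampus array. Of the 13 tested in the cerebellum only the 2 bright Prl2c3 probes passed, both lower, beside 0.579% of all probes. Both entered the test through WT alone, with 2 and 1 of 3 En2-/- arrays well above background. None of 12 passed in the hippocampus, beside 2.15% of all probes, and nothing is read from these counts. Prlr, the prolactin receptor gene, had changes of -0.01, -0.23 and 0.31 over 3 probes in the cerebellum and of -0.53, -0.66 and -1.05 in the hippocampus, and none passed. Igf2r, which encodes the mannose 6-phosphate receptor that proliferin can bind, had -0.10 (SE 0.24) in the cerebellum and 0.25 (SE 0.28) in the hippocampus.

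Position along the chromosome was not used to choose the genes. The 7 genes lie on 5 chromosomes, and 9430027B09Rik and Tesc share chromosome 5 with En2. The probe of 9430027B09Rik is 39.3 Mb from that of En2. Within 1 Mb of the members, 3 of 192 probes tested in the cerebellum and 9 of 183 in the hippocampus had a limma adjusted p under 0.05, beside 0.579% and 2.15% over all probes. Of the 3 in the cerebellum, 2 are Prl2c3 probes that may read the RNA of Prl2c5. Of the nearest genes with a probe on each side of a member, only Prl2c3 beside Prl2c5 passed. Around Fn3krp and Fn3k these were Rab40b, with changes of -0.13 and 0.32 in cerebellum and hippocampus at its nearer probe, and Zfp750, with -0.21 in the cerebellum. Beside Tescl they were Zfp94 (0.60 and 0.66) and Lypd5, which was not tested.

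Around Gm5148 the nearest were Spry1, an inhibitor of growth factor signalling, with -0.42 and -0.63, and 4930556A17Rik, which was not well above background on any array. Tesc lies between Fbxo21 (-0.03 and 0.07) and Fbxw8 (-0.21 and -0.27). Prl2c5 lies between Prl2c3 and Gpr137b (-0.08 and 0.54). Around 9430027B09Rik the nearest were Slc30a9, a zinc transporter gene, with 0.17 and 0.12 at its nearer probe, and Bend4 with 0.56 (SE 0.23) and 1.18 (SE 0.25, limma adjusted p = 0.057 in the hippocampus).

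Within 1 Mb of 9430027B09Rik, 1 of 18 probes tested passed in the cerebellum and 2 of 17 in the hippocampus, all lower as the member was. Over all probes 0.579% and 2.15% passed, and nothing is read from so few. Bend4, the nearest gene, was higher in both tissues and did not pass. Shisa3, 0.23 Mb away, was lower in En2-/- cerebellum (-2.09, SE 0.26, limma adjusted p = 0.017) and did not pass in the hippocampus (limma adjusted p = 0.15). Atp8a1, which encodes a phospholipid flippase, was lower in the hippocampus by 2 of its 3 probes (-1.94, SE 0.34, and -2.17, SE 0.38, limma adjusted p = 0.036 and 0.035), with -1.06 and -0.64 in the cerebellum. Its remaining probe, A_52_P385896, did not pass in either tissue. The change of that probe was -0.09 (SE 0.17, limma adjusted p = 0.79) in the hippocampus and 0.29 (SE 0.20, limma adjusted p = 0.81) in the cerebellum. The other calls in the hippocampus were scattered. Cd177 near Tescl passed as higher in En2-/-, and was not well above background on any WT array. Notum near Fn3krp and Pou2f2 near Tescl passed as lower, and were not well above background on any En2-/- array. Cic near Tescl, and Taok3, Nos1 and Med13l near Tesc, each passed as lower by a single probe (-1.04 to -1.36, limma adjusted p from 0.020 to 0.049). Other probes of these 4 genes did not pass, with 0.33 and -0.76 for Cic, 0.29 and -0.39 for Taok3, -0.01 for Nos1, and 0.06 and -0.01 for Med13l. With the slide as a block, 1 neighbour passed in the hippocampus in place of 9, and the count over all probes was 134 in place of 510.

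**Figure D4:**
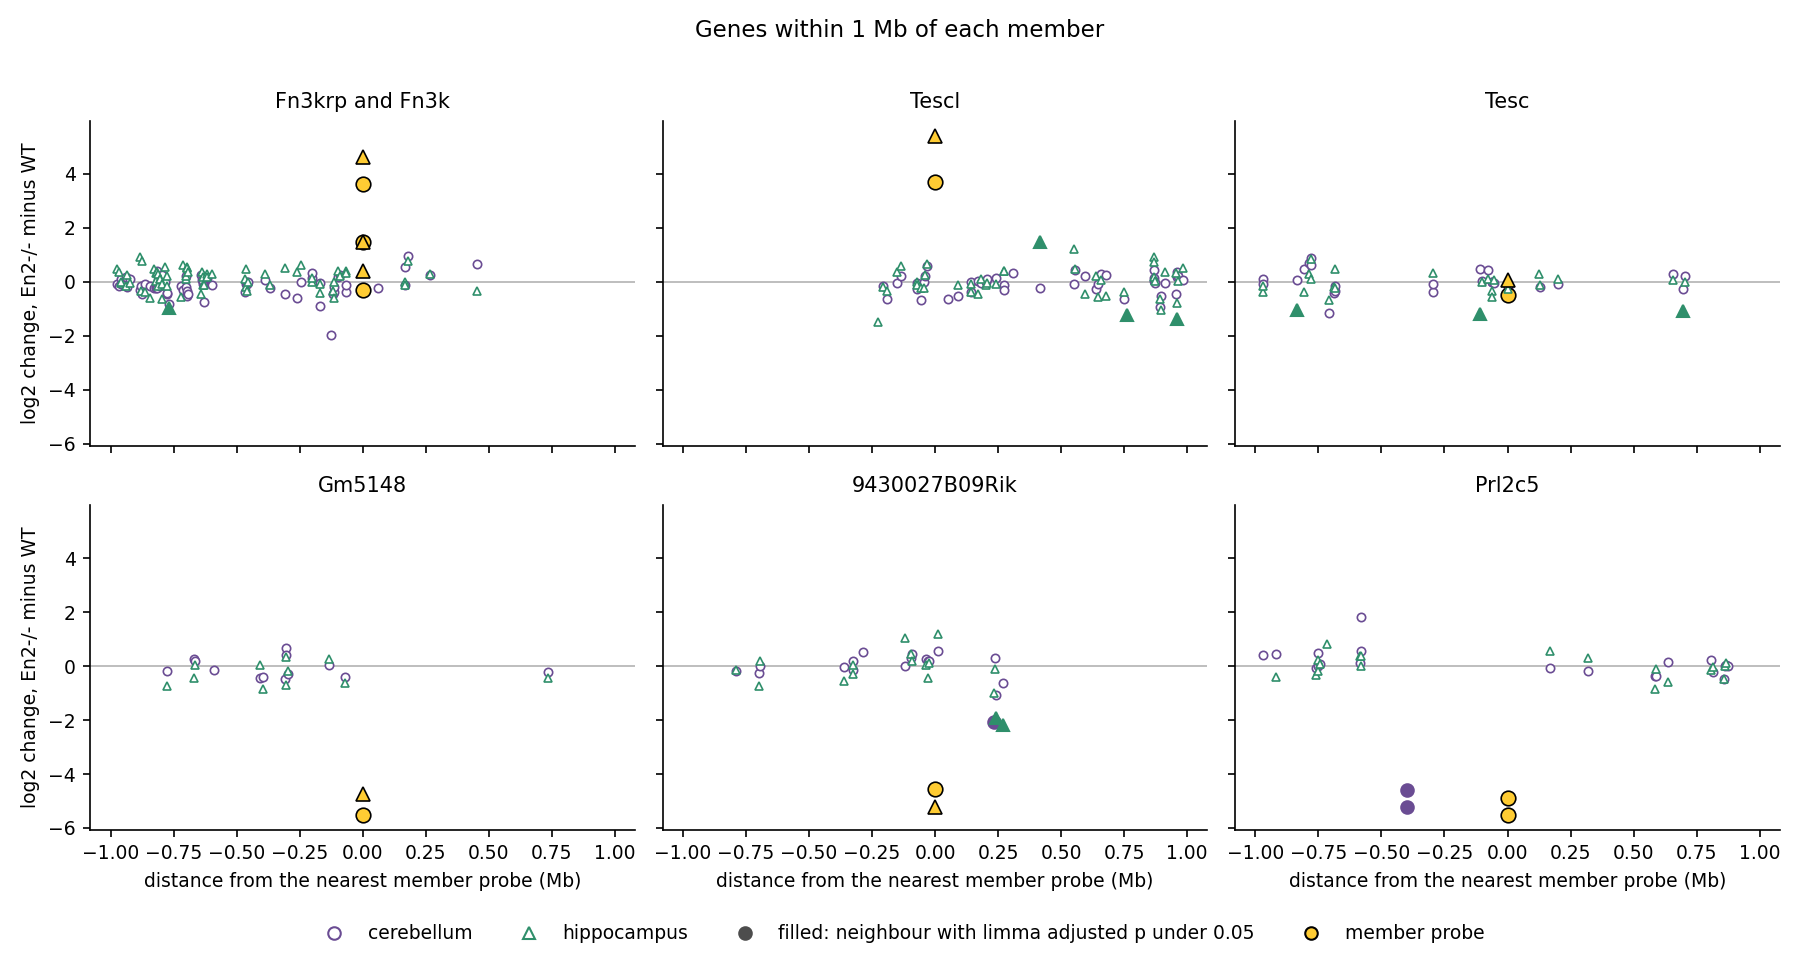
Log2 change, En2-/- minus WT (y axis), of probes within 1 Mb of each member against distance from the nearest member probe (x axis, Mb), with circles for cerebellum and triangles for hippocampus. Filled symbols are neighbours with limma adjusted p under 0.05, and yellow symbols the member probes. Most neighbours lie near 0. The filled points beside 9430027B09Rik (Shisa3 and 2 probes of Atp8a1) and Prl2c5 (Prl2c3, which may read the same RNA) lie on the same side as the member. So does Cd177 beside Tescl, while Pou2f2 and Cic beside Tescl and Notum beside Fn3krp lie on the opposite side. Those beside Tesc lie below 0.

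The genes whose levels followed each member most closely over the 12 arrays are given as a description. The arrays share the genotype split and the points are not independent, so no p is given. Fn3krp ran with Zfp236 (r = 0.96), Ocel1 (0.96) and Lta (0.95), and Lta is itself among the 11 probes on-off in both tissues. Gm5148 ran with D430006K04 (0.99), Rrp7a (0.98) and Usp53 (0.98), and 9430027B09Rik with D430006K04 (0.98), Rrp7a (0.98) and Gm5148 (0.98). Prl2c5 ran with Cdc20 (0.96), Galnt15 (0.96) and Krt28 (0.96). For Tescl the closest were Exoc3l2 (0.92), 0610042G04Rik (0.91) and Plac9a (0.91), and Exoc3l2 is on chromosome 7 as Tescl is.

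The tissue labels fitted the markers, as all 7 cerebellum markers had higher levels in the cerebellum and all 8 hippocampus and forebrain markers in the hippocampus. The En2 probe lies outside the deleted part and checks nothing (14.2 ± 0.41 in WT and 14.5 ± 0.37 in En2-/- cerebellum, SD, n = 3). Some marker lists moved with genotype. Over 5 thalamus markers, all well above background in every group, the mean level was 9.17 to 9.52 on WT and 10.4 to 10.9 on En2-/- hippocampus arrays. Over 8 choroid plexus markers it was 10.45 to 10.67 on WT and 10.9 to 11.1 on En2-/- cerebellum arrays, and ran from 8.40 to 12.7 among En2-/- hippocampus arrays. The 7 cerebellum markers averaged 14.3 to 14.8 on WT and 14.0 to 14.3 on En2-/- cerebellum arrays. Their part in the changes of the members was not tested. Of 7 pituitary hormone genes, 3 were well above background on all 3 cerebellum arrays of each genotype. Prl was so on 2 WT and 1 En2-/- cerebellum arrays, and Gh and Cga were not in any group. The list averaged 5.53 to 5.80 on WT and 4.74 to 6.34 on En2-/- cerebellum arrays, where Prl2c5 differed.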

How the data were processed

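The authors deposited, for each of 12 one-colour Agilent arrays, the intensity of every spot as read by Feature Extraction 10.7.3.1, with the background-corrected processed signal, local background and flags, and a table of log2 values that they had filtered and quantile normalized, separately by tissue as the values show. From the deposited intensity, log2 of the processed signal was taken, control spots and outlier spots were left out, and the arrays were quantile normalized together. Spots of a probe were averaged, and probes of a gene were kept apart. Names came from the cerebellum files, since 10.8% of spots are named differently in the hippocampus files, and were updated through GRCm38.p6 accessions, as for Tescl.

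Probes entered the test of a tissue if 1 genotype or both had them well above background on its 3 arrays. The test was fitted with limma 3.58.1 in R 4.3.3 and Benjamini-Hochberg adjustment over all probes tested (threshold 0.05). The rank product named in the study's methods takes its p from resampled gene values and was not used. With 3 arrays against 3, exact permutation of 1 probe cannot go below p = 0.1. The same fit gave the tissue contrast over 12 arrays. The fit was tested on simulated data. Probes were aligned with Biopython 1.88.

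The genes, the lists of relatives and markers and the rule for named genes were chosen with earlier results of these data known. The rule takes every probe of the 7 genes, relatives that passed or that belong to the Prl2c, Chp and Fn3k genes, neighbours within 1 Mb that passed or lie nearest, the 3 genes most alike to each of the 5 on-off members, and the probes on-off in both tissues, of which some are not reported here. Glo1, Prlr, Igf2r and the other probes of called neighbours were named after their values were seen. Each slide held 1 array of every group with the same replicate number. Deviations from group means of arrays with equal number correlated between -0.13 and 0.08 in the cerebellum and between -0.18 and 0.07 in the hippocampus. Across the tissues they correlated at 0.26, -0.27 and 0.04 in WT and at 0.12, 0.03 and -0.09 in En2-/-. These values show no clear pairing of the samples by number, and with 3 arrays a group they cannot exclude one. Arrays of a group were no copies of each other (rank correlations 0.968 to 0.982). Alternatives were other normalizations, normexp background, the authors' values, other filters and thresholds, the slide as a block, and each array left out.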

Additional observations from a re-analysis of the deposited data

How the results depend on the processing

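For the genes other than Fn3k and Tesc, the sign of the changes follows from how they were chosen and is no sign of stability. The size of the changes depended on background, as the report gives. Among tissue differences of member probes, Fn3krp lost its call under the 75th percentile, as given, and both Fn3k probes kept theirs under every alternative run. The authors' table was normalized within each tissue, so the tissue contrast was not run on it.

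Counts over all probes were less stable. In the cerebellum 145 calls became 53 to 110 with an array left out, 58 with no filter on dim probes, 93 when all arrays of the tissue had to be well above background and 46 at an adjusted p of 0.01. In the hippocampus 510 became 81 to 356, 163 with no filter and 84 at 0.01. With the replicate number, which is the slide, as a block, the hippocampus gave 134 calls, and calls near the members went from 9 to 1. The cause was not tested. Within 5 Mb the calls near members were 10 in the cerebellum and 26 in the hippocampus, since more probes are counted.

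The number of on-off probes (108, 186 and 11 in both tissues) became 437, 504 and 43 when the other genotype could have 1 detected array, and 17, 26 and 7 when a log2 difference of at least 3 was also required. With an array left out it was 171 to 357 in the cerebellum, 236 to 452 in the hippocampus and 11 to 20 in both. Signals near background limit Gm5148, 9430027B09Rik, Prl2c5 and, in the hippocampus, Tescl to bounds.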
